A study of Naumovozyma castellii with 10 samples.

Results

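CUT1056, CUT0871 and CUT0225 are 3 cryptic unstable transcripts of the budding yeast Naumovozyma castellii that carried dense small RNAs. They were picked by name for their small RNA density in these same libraries, out of 1280 annotated CUTs and 8407 annotated features. The value behind that choice is the density of each group, so levels and ranks are given below as a description without a test. By mean density over the 6 libraries with Dicer, CUT1056 had rank 2, CUT0225 rank 3 and CUT0871 rank 4 among CUTs. CUT0871 averaged 7.87 reads per nt, and CUT0548, the next CUT down and not chosen, averaged 5.89. CUT1261, the densest CUT at 109.7, is not one of the 3 either.

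CUTs are long noncoding RNAs that the nuclear exosome normally removes soon after they are made. SUTs (stable unannotated transcripts) and XUTs (transcripts kept low by the cytoplasmic exonuclease Xrn1) are the other lncRNA classes in the annotation. Translation-dependent nonsense-mediated decay (NMD), which needs the helicase Upf1, degrades many cytoplasmic RNAs, and cycloheximide (CHX) stops translation and with it NMD. Unlike Saccharomyces cerevisiae, N. castellii has kept RNA interference: Dicer (Dcr1) cuts double-stranded RNA, such as paired sense and antisense transcripts, into small RNAs that Argonaute binds.

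Small RNAs were sequenced in 5 groups of 2 biological replicates, all MATalpha ura3-1 ho and grown at 25 °C in YPD to an OD600 of 0.5. The groups were untreated wild type (WT), untreated upf1::kanMX6 (upf1), wild type given 100 µg per mL of CHX during 15 min (WT CHX), untreated dcr1 upf1::kanMX6 (dcr1 upf1) and dcr1 given the same CHX treatment (dcr1 CHX). Each genotype is 1 strain, and no untreated dcr1 group was analysed here, so Dicer loss was compared only within upf1 cells and within CHX-treated cells. Values are small RNA densities, in reads per nucleotide of feature scaled to small RNAs of added Schizosaccharomyces pombe RNA. The libraries come from bulk cultures, in which more small RNA per cell and more cells making it cannot be told apart. Reads over annotated features ran from 3169072 to 6904640 in the 6 libraries with Dicer and from 129559 to 148330 in the 4 without it. NAM7, the UPF1 gene, had 13 and 3 reads in the WT libraries, 21 and 45 after CHX, 4 and 8 with dcr1 and CHX, and 0 in all 4 libraries of the upf1 and dcr1 upf1 groups. The dcr1 genotype could not be checked this way, since no feature here is named DCR1.

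CUT1056 spans 331966 to 333306 on the plus strand of chromosome 7 (1341 nt) and was the densest of the 3 in every library. The WT replicates had densities of 30.6 and 27.5, the upf1 replicates 42.5 and 37.5, and the WT CHX replicates 37.0 and 33.7. Without Dicer, the dcr1 upf1 replicates had 0.0492 and 0.0614 and the dcr1 CHX replicates 0.0990 and 0.0881, from 189 to 251 reads each. Both upf1 and both WT CHX values lay above both WT values, the upf1 values lay just above the WT CHX values (40.0 ± 3.5 against 35.3 ± 2.35, mean ± SD, n = 2), and the libraries without Dicer lay far below all others.

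CUT0871 spans 585119 to 588155 on the minus strand of chromosome 5, and with 3037 nt is the longest of the 3. WT libraries gave densities of 5.06 and 4.88, upf1 libraries 12.9 and 12.3, and WT CHX libraries 6.43 and 5.68. The dcr1 upf1 libraries gave 0.0105 and 0.0156 and the dcr1 CHX libraries 0.0252 and 0.0173, from 91 to 145 reads each. The upf1 replicates stood apart from all other libraries, and WT CHX lay only a little above WT.

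CUT0225 spans 1924809 to 1926767 on the minus strand of chromosome 1 (1959 nt). Its density was 4.48 and 4.25 in the WT replicates, 29.5 and 28.9 in those of upf1, and 6.88 and 5.84 in those of WT CHX. It was 0.0186 and 0.0295 in the dcr1 upf1 replicates and 0.0483 and 0.0373 in those of dcr1 CHX, from 104 to 179 reads each. CUT0225 was the sparsest of the 3 in WT and came close to CUT1056 in upf1.

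**Figure D1:**
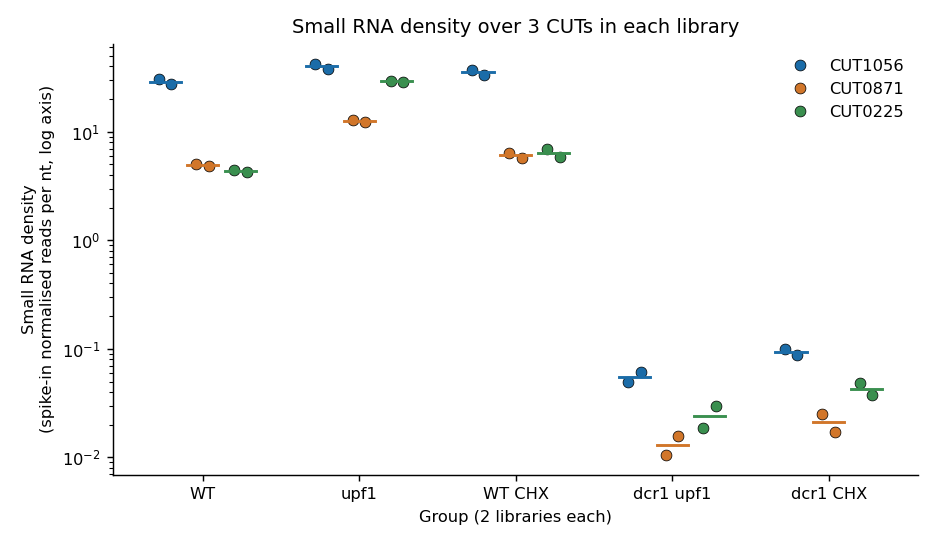
Small RNA density (spike-in normalised reads per nt, log axis) of CUT1056, CUT0871 and CUT0225 in each of the 10 libraries, by group; points are libraries and short lines are means of 2. CUT0225 goes from 4.36 in WT, below CUT0871, to 29.2 in upf1, above it, and all 3 lie below 0.1 in the 4 libraries without Dicer.

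The order of the 3 changed between groups. The density ratio of CUT0225 to CUT0871 was 0.885 and 0.870 for the WT libraries, 2.29 and 2.35 for upf1, and 1.07 and 1.03 for WT CHX. CUT1056 was 6.65 ± 0.26 times as dense as CUT0225 in WT (SD, n = 2), 1.37 ± 0.10 times in upf1 and 5.57 ± 0.27 times in WT CHX. These ratios are taken within a library and do not depend on how libraries were scaled. Among the 1280 CUTs, CUT1056 ranked 2 in WT, upf1 and WT CHX alike, CUT0871 ranked 3, 4 and 5, and CUT0225 ranked 4, 3 and 4. The WT densities of CUT0871 and CUT0225 did not overlap (4.88 to 5.06 against 4.25 to 4.48), whereas their WT CHX densities did.

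The 3, chosen for density, held a large share of all small RNA density over CUTs. CUT1261, not one of them, held more than the 3 together in WT, with a mean density of 80.7. Together they made up 23.0% ± 0.9 (SD, n = 2) of the summed CUT density in WT, against 15.8% ± 0.4 for upf1 and 16.2% ± 0.3 for WT CHX. CUT1056 alone accounted for 17.4% in WT and 7.71% in upf1, while CUT0225 went from 2.62% to 5.63%. The median CUT had a density of 0.00847 in WT and 0.0351 in upf1 (the densities of the 3 in these groups are 4.36 or more).

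The 3 loci differ in what is annotated on the other strand. CUT1056 lies entirely inside XUT0792 (331859 to 333912, plus strand), which holds the same reads and is no independent measurement. The 713 nt of XUT0792 outside CUT1056 had a density of 10.8 to 18.9 in the 6 libraries with Dicer, and held 17.0% to 19.3% of the reads of XUT0792. Opposite to CUT1056, only 68 nt are covered by an annotated feature, XUT0791, with densities of 0.0232 and 0.0153 (WT), 0.0288 and 0.0268 (untreated upf1), and 0.144 and 0.146 (CHX-treated WT). The nearest features that do not overlap CUT1056, CUT1055 at 218 nt and XUT0793 at 832 nt, held between 0 and 71 reads in a library. No annotated feature opposite CUT1056 was dense, and the minus strand opposite its other part was not analysed here.

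CUT0871 is almost the same interval as XUT0655 (585104 to 588156, minus strand) and faces SUT106 (585030 to 587489, plus strand) over 2371 nt, or 78.1% of its length. SUT106 was dense too, at 7.28 and 7.50 for the WT replicates, 17.5 and 16.7 for upf1, and 9.71 and 8.25 for WT CHX. The density ratio of CUT0871 to SUT106 stayed between 0.651 and 0.736 in the 6 libraries with Dicer. CUT0872, a 309-nt CUT on the plus strand that also lies inside CUT0871 but beyond the end of SUT106, held only 12 to 37 reads in those libraries. The flanking XUT0654 and XUT0656, at 135 nt and 88 nt, had WT densities of 0.0139 and 0.00493. Each of these 3 neighbours was far sparser than CUT0871 and SUT106. Further along the minus strand XUT0658 (589011 to 589884) was dense again, with means of 5.59 in WT and 8.94 in upf1.

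CUT0225 contains XUT0176 (1924840 to 1926746, minus strand), and the parts of CUT0225 outside XUT0176 held no more than 0.0275% of its reads. On the plus strand it faces the whole of the protein-coding gene NCAS_0A09640 (1924869 to 1926374), which has no name in the annotation. NCAS_0A09640 had densities of 3.95 and 3.71 (WT), 28.2 and 27.8 (untreated upf1), and 6.40 and 5.50 (CHX-treated WT). The density ratio of CUT0225 to NCAS_0A09640 was 1.13 and 1.15 for the WT libraries, 1.05 and 1.04 for upf1, and 1.07 and 1.06 for WT CHX. The 2 annotated intervals, 1959 nt and 1506 nt long, were thus nearly equal in density in each group. Whether reads were counted by strand is not given in the sources used here. Near CUT1056, the plus-strand gene NCAS_0G01860 held 164 and 210 reads in upf1. XUT0793 (64 and 71 reads) and CUT1058 (44 and 43), which together span it on the minus strand, held fewer even when combined. Counts that ignore strand could not give this at that locus. For CUT0225 and NCAS_0A09640, and for CUT0871 and SUT106, sharing of reads was not tested. The next genes on the lower side, NCAS_0A09630 at 278 nt and then NCAS_0A09620, both unnamed and on the minus strand, were denser still, with WT means of 44.9 and 236. NCAS_0A09620 spans 207 nt and was denser than every lncRNA named here in WT. The way reads with several genomic matches were counted is not given in the sources used here, and its part in these densities was not tested.

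**Figure D2:**
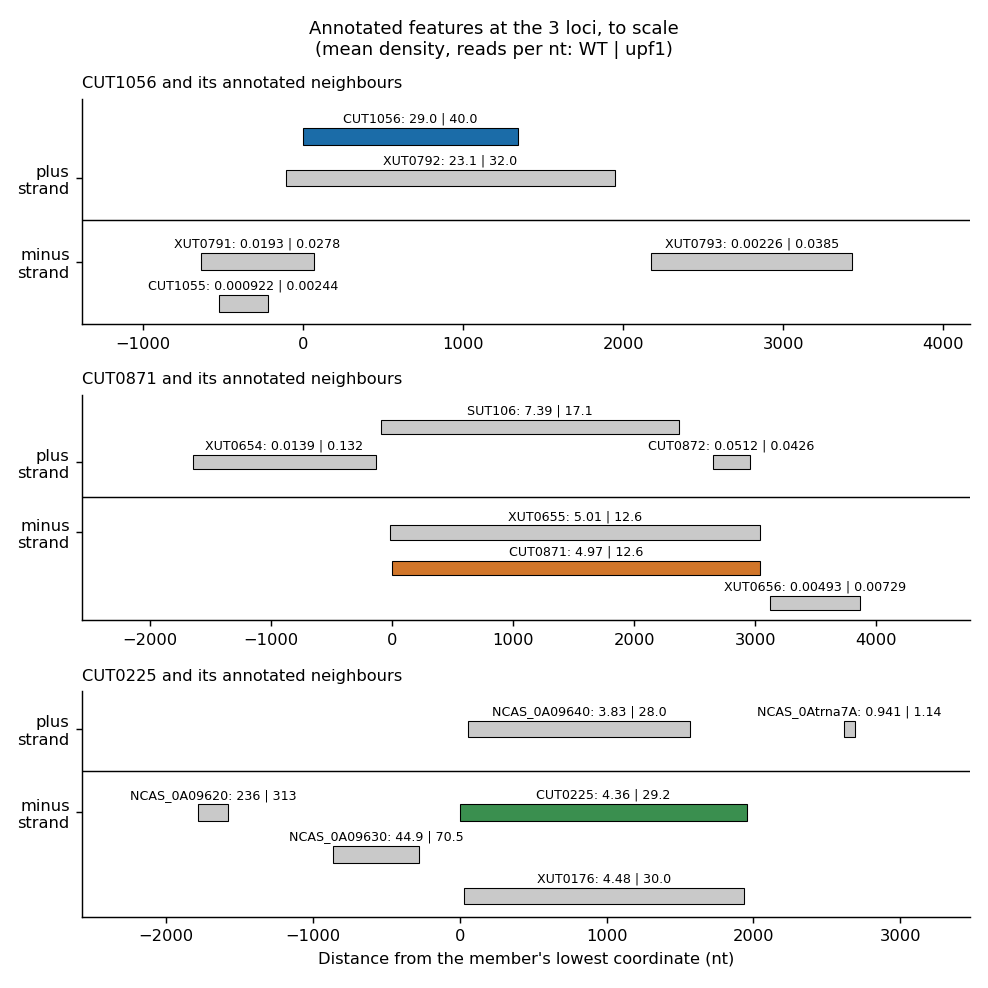
Annotated features overlapping or nearest to CUT1056 (top), CUT0871 (middle) and CUT0225 (bottom), with NCAS_0A09620 added, drawn to scale against the distance in nt from the lowest coordinate of the CUT, plus strand above and minus strand below the line; bar height carries no value. The 2 numbers after each name are the mean densities in WT and upf1. CUT0871 and CUT0225 face dense features (SUT106 with 7.39 and 17.1, NCAS_0A09640 with 3.83 and 28.0). The only annotated feature opposite CUT1056, XUT0791, overlaps 68 nt of it and is sparse.

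The comparison of upf1 with WT asked how small RNAs respond to loss of NMD. All 3 CUTs were higher in upf1 under spike-in scaling, with 95% intervals that did not overlap (log2 2.48 to 2.999 for CUT0225, 1.10 to 1.58 for CUT0871 and 0.20 to 0.72 for CUT1056). CUT0225 rose 6.68-fold (log2 2.74, SE 0.11, adjusted p = 1.84e-06), CUT0871 rose 2.53-fold (1.34, SE 0.10, adjusted p = 2.95e-05) and CUT1056 rose 1.38-fold (0.46, SE 0.11, adjusted p = 0.00964), by limma on log2(density + 0.00145) with Benjamini-Hochberg adjustment over 7879 features. Of all features tested, 57.7% were called higher, with a median log2 difference of 1.20, and 49 were called lower. Of 1145 CUTs tested, 65.4% were called higher, with a median of 1.69, above the values of CUT0871 and CUT1056. A call of higher is thus the common outcome. Among the log2 differences of all features, CUT1056 lay at percentile 23.0, CUT0871 at 54.2 and CUT0225 at 83.2. Scaling each library to its median mRNA instead, which moved the median of all features to 0.12, gave CUT0225 a rise of 1.39, CUT0871 no called difference (-0.01) and CUT1056 a fall of 0.89 on the log2 scale (log2 -0.89, adjusted p = 0.000157), and it changed the call totals from 4549 higher and 49 lower to 2147 higher and 948 lower. Scaling to tRNA, rRNA and snoRNA (log2 0.14) or fitting all 10 libraries (adjusted p = 0.0509) ended the call of CUT1056. That call also rested on single libraries: it was lost without upf1 replicate 1 (log2 0.37) or WT replicate 2 (log2 0.38). Across all alternatives tried, which differ in sign, its log2 difference ran from -0.89 to 0.55 and the limma adjusted p from 1.68e-08 to 0.437.

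The dense features on the opposite strand rose by amounts near those of the CUTs they face. Counting by strand is not documented, and whether these features share reads with those CUTs was not tested. NCAS_0A09640 rose by 2.87 (SE 0.11, adjusted p = 1.42e-06), next to 2.74 for CUT0225. SUT106 rose by 1.21 (SE 0.11, adjusted p = 6.89e-05), next to 1.34 for CUT0871. Of these, SUT106 was at -0.14 under mRNA-median scaling, while NCAS_0A09640 was not reversed by it. The dense neighbours of CUT0225 rose much less, NCAS_0A09630 by 0.65 (SE 0.11) and NCAS_0A09620 by 0.41 (SE 0.12), and both were reversed by mRNA-median scaling. CUT0872, the sparse CUT inside CUT0871, had a log2 difference of -0.26 (SE 0.25, adjusted p = 0.41) and did not pass the test. XUT0791, opposite the edge of CUT1056, had a log2 difference of 0.52 (SE 0.24, adjusted p = 0.1), which missed the threshold too. Other sparse neighbours rose more than the CUTs in the same limma fit. XUT0793 rose by 3.44 (SE 0.37, adjusted p = 0.000182), from 7 and 4 reads to 64 and 71. XUT0654 rose by 3.13 (SE 0.25, adjusted p = 3.79e-05), from 36 and 43 reads to 251 and 307. XUT0656 (0.45) and CUT1055 (0.47) were not called.

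Beside these stand 4 other dense lncRNAs, fixed by name. XUT0958, XUT0525 and XUT0891, with means of 106, 83.3 and 71.6 over the 6 libraries with Dicer, are denser than XUT0859 (62.6) and not among them. CUT1261 rose by 0.68, XUT0620 by 0.81, XUT0769 by 0.92 and XUT0859 by 1.76 in upf1, all called in the limma fit. The 3 CUTs stood at 2.74, 1.34 and 0.46 on the same scale. Under mRNA-median scaling CUT1261, XUT0620 and XUT0769 turned negative and XUT0859 did not.

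The comparison of WT CHX with WT asked the same of a translation block. The 3 CUTs rose little under spike-in scaling: CUT0225 by 0.54 on the log2 scale (SE 0.11, adjusted p = 0.00366), CUT0871 by 0.28 (SE 0.10, adjusted p = 0.0368) and CUT1056 by 0.28 (SE 0.11, adjusted p = 0.0488). The median of all features was 1.51 and 77.1% of them were called higher, next to 1.38 and 69.3% for all CUTs tested. The 3 CUTs lay between percentiles 6.35 and 10.9 of all log2 differences. Under mRNA-median scaling, which set the median of all features at -0.24 and the call totals at 689 higher and 1582 lower in place of 6071 and 13, all 3 had a lower density in WT CHX, at -1.48 for CUT0225, -1.73 for CUT0871 and -1.73 for CUT1056. The call of CUT1056 was lost without any 1 of the 4 libraries (log2 0.21 to 0.36), and that of CUT0871 without WT CHX replicate 1 (0.19), WT replicate 1 (0.31) or WT replicate 2 (0.26). Scaling to tRNA, rRNA and snoRNA gave 0.12 for CUT0225, -0.14 for CUT0871 and -0.13 for CUT1056, and neither there nor in the fit of all 10 libraries was any of the 3 called.

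Among the features overlapping the 3 CUTs, XUT0791 had the largest difference with CHX. NCAS_0A09640 rose by 0.63 (SE 0.11) and SUT106 by 0.28 (SE 0.11), and both were reversed by mRNA-median scaling. XUT0791, opposite the edge of CUT1056, rose 7.19-fold (log2 2.85, SE 0.24, adjusted p = 0.000118) from 34 and 19 reads in WT to 102 and 159 in WT CHX, at percentile 92.2, and was at 0.87 under mRNA-median scaling. CUT1056 itself rose 1.22-fold in the same libraries. CUT1261, XUT0620, XUT0769 and XUT0859 rose by 0.36 to 0.56, close to the 3 CUTs, and all 4 were reversed by mRNA-median scaling.

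Set against each other directly, upf1 exceeded WT CHX for 2 of the 3. CUT0225 was 4.60-fold denser in upf1 (log2 2.20, SE 0.11, adjusted p = 1.42e-05) and CUT0871 was 2.08-fold denser (1.06, SE 0.10, adjusted p = 0.000282). Of all features, 21.8% were called higher in upf1 than in WT CHX, and the median was -0.24. Of 1145 CUTs tested, 33.0% were called higher, with a median of 0.29. CUT1056 was not called in the limma fit (log2 0.18, 95% interval -0.08 to 0.44, adjusted p = 0.226), and an interval of this width does not show that the 2 groups were alike. Under mRNA-median scaling CUT1056 was called, at 0.85, so the sign held and the call did not. The 3 comparisons among WT, upf1 and WT CHX share libraries and are not independent of each other.

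**Figure D3:**
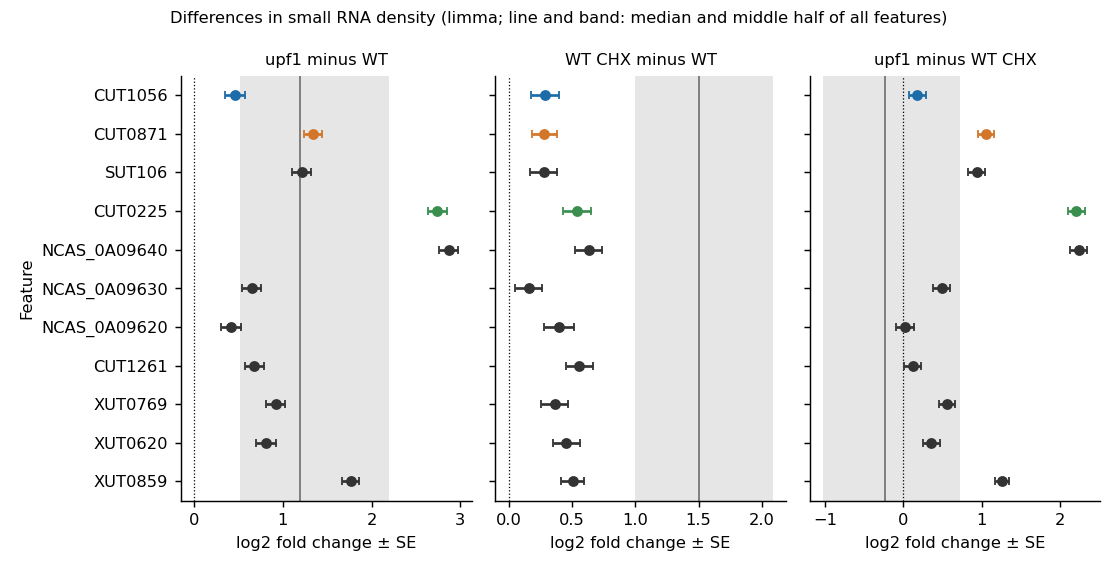
Log2 fold change (x axis, points with SE bars from the limma fit of 6 libraries) of the 3 CUTs (coloured), SUT106, NCAS_0A09640, NCAS_0A09630, NCAS_0A09620 and 4 dense lncRNAs, in upf1 against WT, WT CHX against WT, and upf1 against WT CHX; the grey line and band are the median and 25th to 75th percentiles of all 7879 features. CUT0225 lies above the band at 2.74 in upf1, and every feature plotted lies below the band with CHX.

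Loss of Dicer removed almost all small RNAs of the 3 CUTs. In dcr1 upf1 against upf1 the log2 difference was -10.19 for CUT0225 (SE 0.24), -9.78 for CUT0871 (SE 0.24) and -9.47 for CUT1056 (SE 0.18), with adjusted p of 1.37e-09, 1.39e-09 and 9.33e-10 in the limma fit of 10 libraries. In dcr1 CHX against WT CHX the log2 difference was -7.17 for CUT0225, -8.08 for CUT0871 and -8.54 for CUT1056, all called. Over all features tested, 83.9% were called lower in dcr1 upf1 and 87.1% in dcr1 CHX, with medians of -3.13 and -3.06. The 3 CUTs lay in the lowest 1.31% and 2.64% of the 2 sets of differences. Under mRNA-median scaling the differences were smaller but still called, at -6.55, -6.20 and -5.79 (dcr1 upf1) or -3.90, -4.84 and -5.25 (dcr1 CHX) for CUT0225, CUT0871 and CUT1056. A feature at low density cannot fall as far as a dense one on this scale, and the 3 were chosen for density.

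The drop was larger in upf1 cells than with CHX, by a log2 difference of -3.02 (CUT0225), -1.70 (CUT0871) and -0.93 (CUT1056), with adjusted p of 0.000399, 0.00679 and 0.0291 for the difference of the 2 effects in the same limma fit. Of all features, 18.4% were called in that direction. The test was chosen after seeing the data. By construction it contains the gap between upf1 and WT CHX, which was 2.20 (CUT0225), 1.06 (CUT0871) and 0.18 (CUT1056). It therefore does not measure the action of Dicer apart from that gap. The call of CUT1056 was lost without either upf1 replicate, either WT CHX replicate, dcr1 upf1 replicate 1 or dcr1 CHX replicate 1 (log2 -0.77 to -1.02), under mRNA-median scaling (-0.53) and under scaling to tRNA, rRNA and snoRNA (-0.65).

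What remained differed between the 2 Dicer-deficient groups. In dcr1 upf1 the density was 0.138% of that in upf1 for CUT1056, 0.104% for CUT0871 and 0.0824% for CUT0225. In dcr1 CHX it was 0.265%, 0.351% and 0.674% of that in WT CHX. Measured against the mean of all 6 libraries with Dicer, the 3 came closer together: 0.159%, 0.166% and 0.181% for dcr1 upf1, against 0.269%, 0.270% and 0.322% for dcr1 CHX. The 94 lncRNAs with a mean density of at least 1 had medians of 0.181% and 0.320% on that measure. Between percentiles 10 and 90 these lncRNAs ran from 0.267% to 0.489% of that mean in dcr1 CHX, and from 0.259% to 2.58% of WT CHX. The density left in dcr1 CHX thus followed the mean over all libraries with Dicer more closely than that of its own matched group, and where these few reads come from was not tested.

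The order of the 3 in libraries without Dicer followed the same lines. The ratio of CUT0225 to CUT0871 was 1.91 and 2.16 in dcr1 CHX, although it was 1.07 and 1.03 in WT CHX. In dcr1 upf1 it was 1.77 and 1.89, below the 2.29 and 2.35 of upf1. Between opposite strands the ratios were 0.952 and 1.16 for CUT0225 to NCAS_0A09640 and 0.609 and 0.664 for CUT0871 to SUT106 in dcr1 upf1. These dcr1 upf1 values rest on 84 to 166 reads per feature and library.

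**Figure D4:**
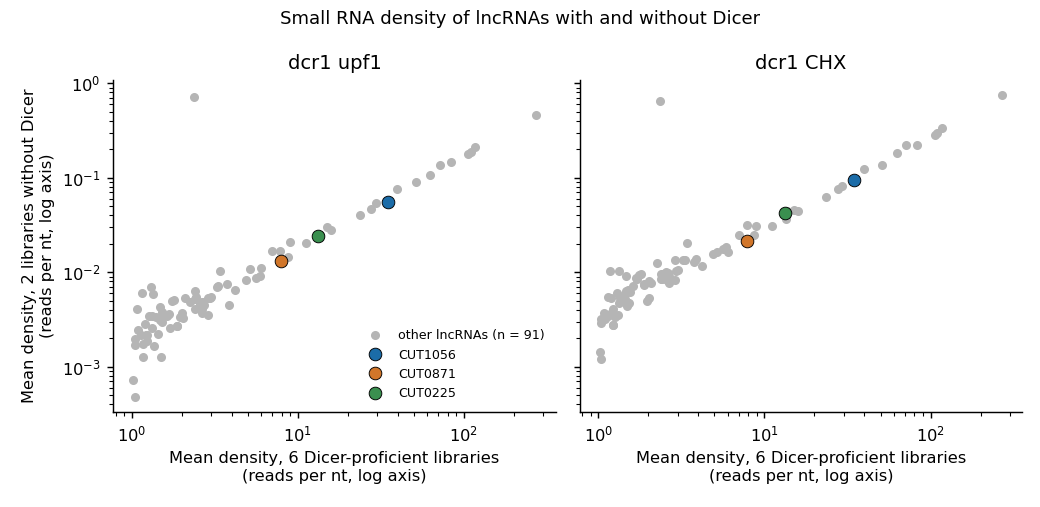
Mean density in the 2 libraries of dcr1 upf1 (left) or dcr1 CHX (right) against mean density over the 6 libraries with Dicer, both in reads per nt on log axes, for the 94 lncRNAs with a mean of at least 1; the 3 CUTs are coloured. The CUTs lie in the main band, near 0.159% to 0.181% of the mean at left and 0.269% to 0.322% at right, and SUT005 is the point far above it.

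Some features had nearly the same profile over the 10 libraries as a CUT of the 3. Likeness was the root mean square difference between log2 densities, each centred on its own mean, among 7717 features that overlap none of the 3. For CUT1056 the closest were XUT0242 (0.087), NCAS_0A09620 (0.101) and CUT1261 (0.106), against a median of 3.21 over all candidates. NCAS_0A09620 is the gene beyond NCAS_0A09630 on the lower side of CUT0225. For CUT0871 the closest were XUT0907 (0.129), the gene NCAS_0H03380 on the strand opposite XUT0907 (0.156), and XUT0859 (0.158). For CUT0225 they were the unnamed gene NCAS_0H01960 (0.098), CUT1185 (0.122) and AQY1 (0.246), the homologue of an aquaporin gene of S. cerevisiae, which CUT1185 faces on the other strand. These profiles are dominated by the gap between libraries with and without Dicer. The lncRNAs with a mean density of at least 1 share that gap, apart from SUT005 (mean 2.37 with Dicer, 0.717 in dcr1 upf1 and 0.647 in dcr1 CHX). Not every dense feature does: the tRNA nearest to CUT0225 had means of 1.24 in WT CHX and 1.21 in dcr1 CHX.

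Genes of RNA decay, the machinery that limits CUTs and NMD targets, also carried small RNAs, at much lower density. Of 35 listed gene names 33 were matched and 32 tested, among them NAM7, which is disrupted in upf1 cells. In upf1 17 were called higher and 0 lower in the limma fit, or 53.1% next to 57.7% of all features. The median log2 difference was 1.00 next to 1.20. SEN1, a helicase that ends noncoding transcription, went from 0.0233 to 0.204 (log2 3.06), SKI7, a bridge between Ski complex and exosome, from 0.00613 to 0.0600 (3.04), EDC3, an enhancer of decapping, from 0.0116 to 0.0662 (2.39), and UPF3, an NMD factor, from 0.00160 to 0.0125 (2.20). With CHX 30 of the 32 were called higher, or 93.8% next to 77.1% of all features, with a median of 1.87 next to 1.51, among them TRF5 (2.95), PAP2 (2.85) and AIR1 (2.73) of the TRAMP complex and DIS3 (2.65), the exosome nuclease. Under mRNA-median scaling 5 of 28 (17.9%) were called higher in upf1, next to 30.01% of all features, and 2 (7.14%) lower, next to 13.25%. With CHX on that scaling 2 (7.14%) were called higher, next to 9.63% of all features, and 2 (7.14%) lower, next to 22.11%. Their roles are those known in S. cerevisiae, and the densities given here for SEN1, SKI7, EDC3 and UPF3 were far below those of the 3 CUTs.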

How the data were processed

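Small RNAs under 80 nt were sequenced from 25 µg of N. castellii RNA mixed with 1 µg of S. pombe RNA, per the labels' protocols. The authors deposited a signal per feature and library, the density of reads per nucleotide normalised to the S. pombe spike-in. The submitters' processing notes list Trim Galore, Bowtie and the build ASM294v2, an assembly of S. pombe. The N. castellii build, the versions, the read lengths kept, any counting by strand and the handling of multiply mapped reads are not given in these sources.

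Of 8770 entries, 92 spike-in control entries without signal and 271 entries repeating an interval were dropped, leaving 8407 features. 5 columns of group means were not used. Density times length, divided by a factor per library, gave whole reads for 100% of values within 0.001 reads. The read numbers quoted are those, and as the deposited values are not counts, a model of these reads serves only as an alternative. As reads carry no molecular identifiers, they are not independent molecules.

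Differences were tested with limma 3.58.1 in R 4.3.3 (trend) on log2(density + 0.00145), with Benjamini-Hochberg adjustment over all features and a call at 0.05, two-sided. As pseudocount served the median, across libraries, of percentile 10 of the densities above 0, and a feature was tested only where its mean reached that value. On this scale the changes of sparse features are understated. The 6 libraries with Dicer were fitted together (7879 features), and all 10 for the Dicer comparisons (7727 features). With 2 against 2 libraries an exact permutation test cannot go below 0.333, so p-values rest on the spread shared over features. Alternatives were the pseudocount, the filter, 2 other scalings, the libraries fitted, overlapping annotations, single libraries left out, a replicate block and, chosen after seeing the data, limma voom on the recovered reads.

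Named features are the 3 CUTs, every feature overlapping them, the nearest on each side, the 3 closest profiles, the CUTs next in rank, 4 dense lncRNAs fixed by name (not the 4 densest), the called decay genes with the largest change (at most 4) and NAM7. NCAS_0A09620 as a neighbour, XUT0658, SUT005, NCAS_0G01860 and CUT1058 were chosen after their values were seen. The 3 CUTs and the lists were chosen with earlier results of these data known. Gene names come from a RefSeq gene table matched by locus tag.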

Additional observations from a re-analysis of the deposited data

Results flagged for a closer look

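The difference between the Dicer effect in upf1 cells and the Dicer effect with CHX was tested in the limma fit of all 10 libraries, a test chosen after seeing the data. For CUT0225 the drop without Dicer was larger in upf1 by a log2 difference of -3.02 (SE 0.34, adjusted p = 0.000399). For CUT0871 the difference was -1.70 (SE 0.34, adjusted p = 0.00679) and for CUT1056 -0.93 (SE 0.25, adjusted p = 0.0291). The call of CUT1056 was lost without either upf1 replicate, either WT CHX replicate, dcr1 upf1 replicate 1 or dcr1 CHX replicate 1 (log2 -0.77 to -1.02), and under both other scalings. Of all features tested, 18.4% were called in this direction, with a median of -0.22. The densities with Dicer differ between upf1 and WT CHX in the same order (log2 2.20, 1.06 and 0.18), and the densities without Dicer were lower in dcr1 upf1 than in dcr1 CHX for all 3 (0.0240 against 0.0428 for CUT0225). The difference is, by construction, the gap without Dicer (dcr1 upf1 against dcr1 CHX) minus the gap with Dicer (upf1 against WT CHX). The gap without Dicer was not tested on its own.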

How the results depend on the processing

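Of 18 results (3 CUTs in 6 comparisons), the number that kept direction and call was 11 under mRNA-median scaling, 13 under scaling to tRNA, rRNA and snoRNA, 14 with the other set of libraries in the fit and 17 or 18 under the other settings that keep every library. For upf1 minus WT, mRNA-median scaling gave CUT1056 -0.89 and CUT0871 -0.0103, the structural RNA scaling gave CUT1056 0.14 (adjusted p = 0.437), and the fit of 10 libraries left CUT1056 at 0.46 (adjusted p = 0.0509). For WT CHX minus WT, mRNA-median scaling gave -1.73, -1.73 and -1.48 for CUT1056, CUT0871 and CUT0225, the structural RNA scaling -0.13, -0.14 and 0.12 (none called), and the fit of 10 libraries 0.28, 0.28 and 0.54 (none called). CUT1056 there stayed at 0.28 and lost its call with the pseudocount divided by 10 (adjusted p = 0.0687), no filter (0.055) or overlapping annotations left out (0.0502). For upf1 minus WT CHX, CUT1056 was called at 0.85 under mRNA-median scaling and at 0.18 by voom (adjusted p = 0.0356). The extra Dicer effect in upf1 of CUT1056 was -0.53 under mRNA-median scaling and -0.65 under the structural RNA scaling, both not called.

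Replicate numbers did not pair the samples: deviations of same-numbered libraries correlated between -0.031 and 0.020 over features. With a replicate block, only the extra Dicer effect of CUT1056 lost its call, at -0.93 (adjusted p = 0.0503). Leaving out single libraries moved CUT1056 from 0.37 to 0.55 in upf1, from 0.21 to 0.36 with CHX and from -1.08 to -0.77 in the extra Dicer effect, and CUT0871 from 0.19 to 0.37 with CHX.

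Features called higher numbered 2147 (upf1), 689 (CHX) and 2599 (upf1 over CHX) under mRNA-median scaling, and features called lower without Dicer 3527 in upf1 and 2880 with CHX. With the pseudocount multiplied by 10 these last were 3711 and 3735, and with it divided by 10 the extra Dicer effect was called for 876. The cause of these changes was not tested.

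Of the context, mRNA-median scaling reversed upf1 minus WT for XUT0791 (-0.72), SUT106 (-0.14), NCAS_0A09630 (-0.70), NCAS_0A09620 (-0.93), XUT0769 (-0.43), XUT0620 (-0.54) and CUT1261 (-0.67). It reversed WT CHX minus WT for SUT106 (-1.74), NCAS_0A09640 (-1.38), NCAS_0A09630 (-1.86), NCAS_0A09620 (-1.62), XUT0769 (-1.66), XUT0859 (-1.51), XUT0620 (-1.56) and CUT1261 (-1.46). The structural RNA scaling reversed it for SUT106 (-0.14), NCAS_0A09630 (-0.26), NCAS_0A09620 (-0.0217) and XUT0769 (-0.0553). The planned edgeR test was not run, since the deposited values are not counts. In libraries without Dicer the 3 CUTs rest on 91 to 251 reads, which limits their precision.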
